A study of Nematostella vectensis with 66 samples.

Results

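A block of 52 gene models of the starlet sea anemone Nematostella vectensis, out of 24265 gene models counted, was high in the same 4 of 66 whole-animal RNA libraries. The members were selected on their measured values. A gene model is a member when its lowest level among those 4 libraries, in CPM (the count scaled to a library total of 1000000), lies above its highest level in any of the other 62 libraries. The members are 0.214% of all gene models. The reverse pattern, with the highest level of the 4 below the lowest of the 62, was met by 0 gene models.

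The animals were adults, reared in the laboratory for generations from a stock of a Massachusetts salt marsh and set out in 10 mesh pens in a tidally restricted pool, at a salinity of 30 ppt. All of them shared this treatment, and no library comes from animals kept in the laboratory. Sampling was hourly and ran from ZT3 (clock hour 8) to ZT12 (clock hour 17). Animals entered libraries as single animals (letters A to D) or as pools of 2 animals (letters E to G). The labels do not say which pen or which sex an animal was, and ZT4 library D is labelled as a pool although the stated protocol makes D a single animal. The block is carried by the single animals ZT3 individual B and ZT4 individual C and by the pools ZT4 pooled E and ZT5 pooled E. Replicates are separate animals or pools, and the largest group of single animals at any hour is 4.

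Nematostella is a burrowing cnidarian whose body holds ectoderm, gastrodermis, stinging cells, nerve cells and muscle, and in mature adults gonad. A whole-animal library sums the RNA of all of them, so more cells of a type and more RNA per cell cannot be told apart in these values. The gene models carry NVE identifiers only, and 0 of the 52 were matched to a name in the reference table at hand. No function, family or protein is therefore given for any member, and no list of marker genes could be applied. The members are ordered below by their level and by how widely they were counted outside the 4 libraries.

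Library totals ran from 251647 to 909746 counts, with a median of 640195. The lowest total was that of ZT4 individual C, one of the 4, while the other 3 held 547008 counts (ZT3 individual B), 664660 counts (ZT4 pooled E) and 581183 counts (ZT5 pooled E). Gene models with a count numbered 17934 in ZT3 individual B, 14096 in ZT4 individual C, 17212 in ZT4 pooled E and 17451 in ZT5 pooled E, against 15758 to 19270 in the other 62. ZT4 individual C thus lay below every other library in both measures, and the other 3 lay inside the range of the 62.

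The block took 7.23% of all counts in ZT3 individual B (39542 of 547008 counts, exact 95% interval 7.16% to 7.30%). It took 6.39% in ZT5 pooled E (37146 counts, 6.33% to 6.45%), 3.60% in ZT4 individual C (9068 counts, 3.53% to 3.68%) and 2.01% in ZT4 pooled E (13365 counts, 1.98% to 2.04%). In the other 62 libraries its share ran from 0.0358% in ZT7 pooled E to 0.0744% in ZT9 pooled G, with a median of 0.0499%. The lowest of the 4 was 27.02 times the highest of the 62, and no library lay between them. These intervals cover counting error only, and the separation is what the rule asked for, so it is given as a description and not tested.

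**Figure D1:**
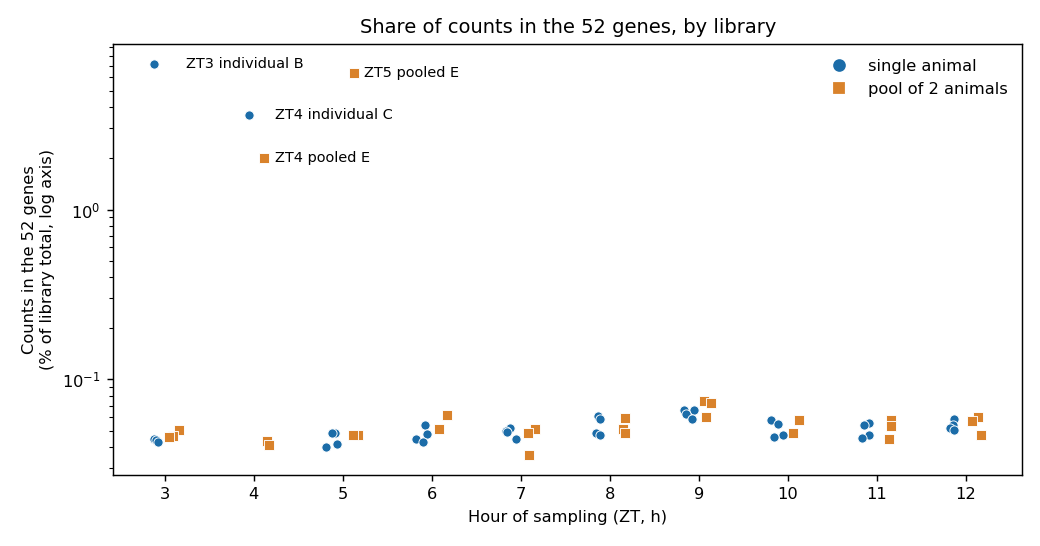
Share of each library's counts that falls in the 52 genes (percent, log axis) against the hour of sampling, with single animals as circles and pools of 2 animals as squares. The 4 named libraries sit between 2.01% and 7.23%, and the other 62 sit between 0.0358% and 0.0744%.

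The label of the block as early fits the hours of the 4 libraries, ZT3, ZT4 and ZT5, the first 3 sampled, and not the other libraries of those hours. At ZT3 the other 6 libraries held 0.0429% to 0.0502% of their counts in the block. At ZT4 the other 2 held 0.0411% and 0.0436%, and at ZT5 the other 6 held 0.0397% to 0.0485%. These 14 libraries of the same hours all lay inside the range of the 62 libraries. Each of the 4 held a count for all 52 members, which the rule requires. In the 62, 25 to 41 members had a count (median 34). The gene NVE20622, whose level varies widely between animals of this series, stood at 1177 CPM in ZT3 individual B, 0 in ZT4 individual C, 1.505 CPM in ZT4 pooled E and 3.44 CPM in ZT5 pooled E. In the 62 its level ran from 0 to 3268 CPM with a median of 3.26 CPM, so the 4 libraries do not share a high or a low level of it.

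**Figure D2:**
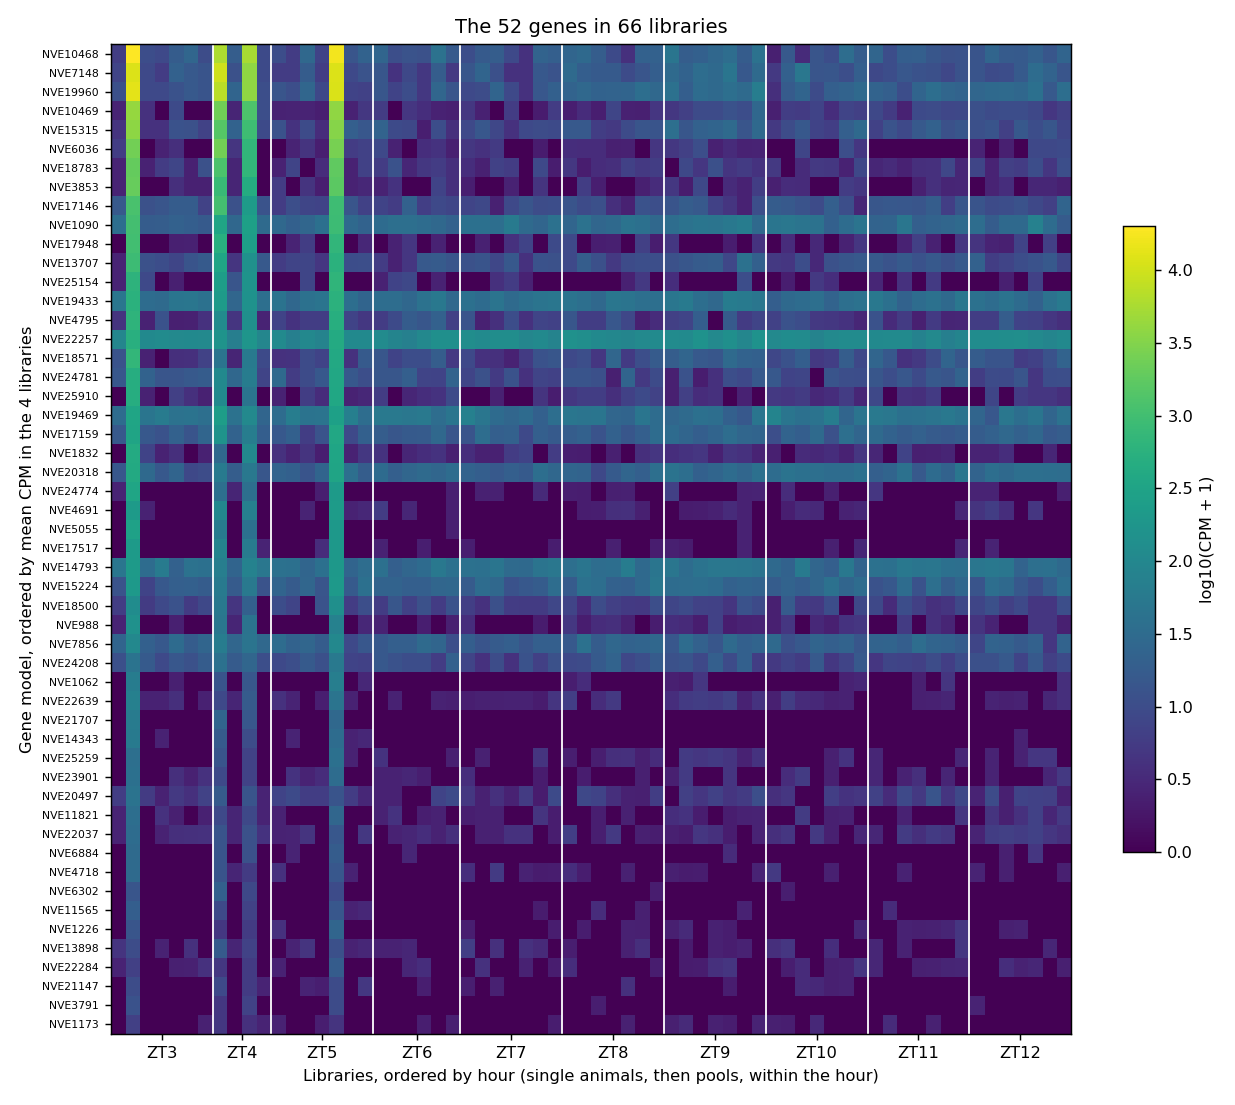
Level of each of the 52 genes (rows, from the highest to the lowest mean CPM over the 4 libraries) in each of the 66 libraries (columns, by hour), coloured by log10(CPM + 1). The 4 bright columns at ZT3, ZT4 and ZT5 are the 4 libraries of the block, and rows that are coloured across the whole plot are members with a count in all 62 other libraries.

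A few members made up most of the block. The mean level over the 4 libraries was at least 1000 CPM for 8 members, from 50 to 1000 CPM for 24 and under 50 CPM for 20, with a median of 143 CPM and a range from 3.98 to 12189.7 CPM. The first 3 members held 63.9% of the block's counts in the 4 libraries together, and the first 8 held 84.6%. In the 62 libraries the same 3 held 9.97% of the block's counts and the same 8 held 14.7%. The share of the first 3 was close to equal in the 4 libraries, at 63.1% in ZT3 individual B, 63.9% in ZT4 individual C, 66.6% in ZT4 pooled E and 63.7% in ZT5 pooled E.

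The leading member, NVE10468, reached 20270.3 CPM in ZT3 individual B, 5985 CPM in ZT4 individual C, 5463 CPM in ZT4 pooled E and 17041 CPM in ZT5 pooled E. In the 62 its lowest level was above 0, its median was 16.04 CPM and its highest was 46.2 CPM, in ZT9 individual A. Its lowest level of the 4 was 118 times its highest of the 62, the widest margin among the members that had a count in the 62.

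NVE7148 stood at 11865 CPM in ZT3 individual B, 9756 CPM in ZT4 individual C, 3967 CPM in ZT4 pooled E and 11917 CPM in ZT5 pooled E. Its median in the 62 was 12.3 CPM and its highest 49.2 CPM, in ZT10 individual C, which put the margin at 80.7. The ZT4 individual C library was close to the 2 highest for this gene, whereas for NVE10468 it was close to the lowest.

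NVE19960 stood at 13512 CPM, 7288 CPM, 3954 CPM and 11783 CPM in the same order of libraries. Its median in the 62 was 20.9 CPM and its highest was 66.3 CPM, in ZT9 pooled G. The order of the 4 libraries was that of the block as a whole.

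NVE10469, whose identifier is next to that of NVE10468, stood at 4254 CPM in ZT3 individual B, 2404 CPM in ZT4 individual C, 1292 CPM in ZT4 pooled E and 3918 CPM in ZT5 pooled E, with a median of 3.98 CPM and a highest of 26.5 CPM in the 62. NVE15315 stood at 3779, 1466, 942 and 3307 CPM in that order, with a median of 9.93 CPM and a highest of 36.7 CPM in the 62. Both were lowest in ZT4 pooled E among the 4, and their margins were 48.7 for NVE10469 and 25.7 for NVE15315.

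NVE6036 stood at 2475 CPM in ZT3 individual B, 2492 CPM in ZT4 individual C, 694 CPM in ZT4 pooled E and 2696 CPM in ZT5 pooled E. It had no count in 23 of the 62 libraries, among them all 7 of ZT11, and its highest level there was 9.93 CPM. NVE18783 stood at 1979.9, 1236, 679 and 1784 CPM in the order above, with a highest of 11.4 CPM in the 62, and NVE3853 at 2060.3, 827, 453 and 1650.1 CPM, with a highest of 7.45 CPM. Among the 8 leading members the mean level in the 62 was between 0.114% and 0.486% of the mean level in the 4.

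The members fall into 3 classes by how many of the 62 libraries held a count of them. Counts in all 62 were found for 16 members, in 31 to 61 for 16 members and in under 31 for 20 members. The first class made up 76.7% of the block's counts in the 4 libraries and 85.6% in the 62. The second made up 20.6% and 12.3%, and the third 2.72% and 2.05%. The mean level over the 4 had a median of 349 CPM in the first class, 257 CPM in the second and 19.2 CPM in the third.

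The first class holds 4 of the 8 leading members, NVE10468, NVE7148, NVE19960 and NVE15315, beside genes that were readily counted in every library. NVE22257 had the highest level of all members in the 62. It stood at 512 CPM in ZT3 individual B, 163 CPM in ZT4 individual C, 173 CPM in ZT4 pooled E and 425 CPM in ZT5 pooled E, against a median of 110.0 CPM and a highest of 158 CPM in the 62. Its mean in the 62 was 34.4% of its mean in the 4, the highest such share among the members.

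NVE19469 stood at 340.0, 250.4, 104 and 280.5 CPM in the libraries from ZT3 individual B to ZT5 pooled E in the same order, with a median of 41.8 CPM and a highest of 86.9 CPM in the 62. NVE1090 stood at 1038, 338, 283 and 889.6 CPM in that order, with a median of 29.7 CPM and a highest of 77.9 CPM. These 3 genes have the highest single levels in the 62 among the members. For all 3 the lowest of the 4 libraries was above the highest of the 62 by far less than for NVE10468.

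At the other end, 1 member had no count in any of the 62 libraries. This was NVE21707, named after its values were seen, at 60.3 CPM in ZT3 individual B, 23.8 CPM in ZT4 individual C, 13.5 CPM in ZT4 pooled E and 27.5 CPM in ZT5 pooled E. NVE5055, likewise named after its values were seen, was counted in 2 of the 62 libraries, with a highest level of 1.56 CPM there, and stood at 287, 55.6, 37.6 and 199.6 CPM in the 4. Its highest count in the 62 was 1, so the test of the hour there (edgeR adjusted p = 0.996) cannot decide anything for NVE5055.

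The margin between the 4 and the 62 was wide for some members and narrow for others. The lowest level of the 4 was at least 10 times the highest of the 62 for 14 members, at least 5 times for 20 and at least 2 times for 30, with a median of 2.44 over the 51 members that had a count in the 62. It had a median of 2.12 in the class counted in all 62, 4.91 in the class counted in 31 to 61 and 2.36 in the class counted in under 31. The lowest count among the 4 libraries was 10 or more for 31 members, from 4 to 9 for 7 and from 1 to 3 for 14. All 21 members below 10 counts were so in ZT4 individual C, the library with the lowest total. Membership of those 21 rests on few reads.

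Just inside the limit lay NVE20497, at 42.05, 15.9, 12.0 and 12.0 CPM in the 4 against a highest of 11.9 CPM in the 62 (ratio 1.01). NVE4718 stood at 29.2, 11.9, 4.51 and 13.8 CPM against 4.43 CPM (ratio 1.02), and NVE22257, described above, had a ratio of 1.03. The genes just outside are given among those with 10 or more counts in each of the 4. The nearest was NVE9714, at 212, 39.7, 34.6 and 162 CPM in the 4, in the order used above. For it ZT8 pooled G was marginally higher than ZT4 pooled E (ratio 0.999). NVE25719 had 146, 67.6, 48.1 and 169 CPM against 50.01 CPM (ratio 0.963). NVE22468 had 56.7, 55.6, 52.7 and 53.3 CPM against 56.99 CPM (ratio 0.924). The limit thus divides genes with nearly the same values.

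**Figure D3:**
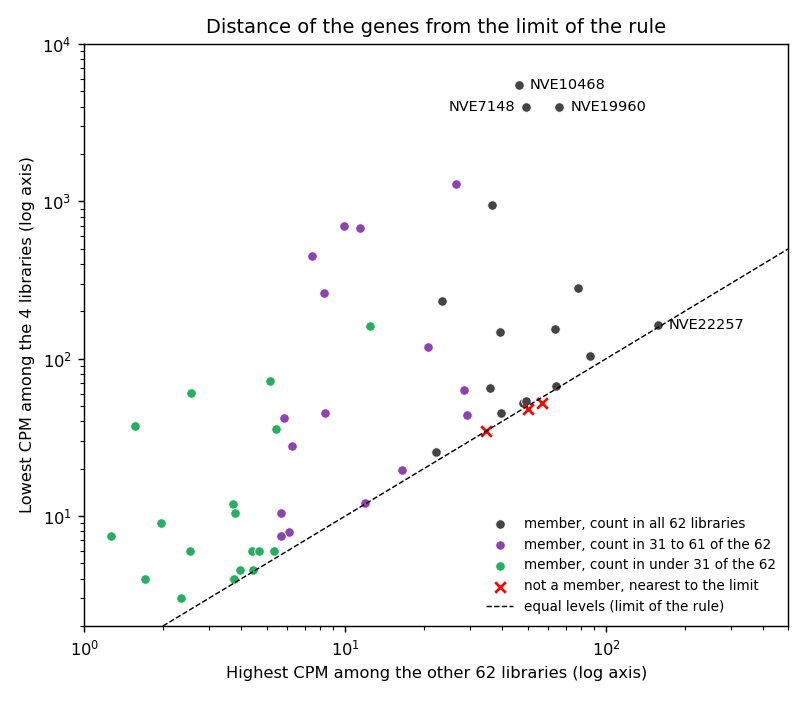
Lowest CPM among the 4 libraries against the highest CPM among the other 62 (both log axes) for the 51 members with a count in the 62, coloured by how many of the 62 held a count, with the 3 nearest non-members as crosses and the line of equal levels. NVE10468 lies 118 times above that line, and NVE22257 and the 3 crosses lie next to it. The crosses were taken among non-members with 10 or more counts in each of the 4.

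The library ZT4 pooled E, where the block was weakest, set the length of the list. With that library out of the data, the rule applied to the other 3 gave 210 gene models. All 52 members are among them, as a rule on fewer libraries requires. The 158 added ones had a median level of 18.8 CPM, as the mean over the 3 libraries, and a median of 3.01 CPM in ZT4 pooled E, where 34 of them had no count. They took 0.385% to 0.680% of the counts in the 3 libraries and 0.146% in ZT4 pooled E. Of the 158, 132 had under 10 counts in at least 1 of the 3 libraries. The most abundant of them, NVE7599, named after its values were seen, had a mean of 671 CPM in the 3. Without ZT4 individual C the rule gave 82 gene models, without ZT5 pooled E 57 and without ZT3 individual B 54.

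The 4 libraries did not carry the block at one strength or in one composition. Its share of counts differed 3.59-fold between ZT3 individual B and ZT4 pooled E. The order ZT3 individual B, ZT5 pooled E, ZT4 individual C, ZT4 pooled E, from high to low, was that of 25 of the 52 members. The highest library was ZT3 individual B for 36 members, ZT5 pooled E for 14, ZT4 individual C for 2 and ZT4 pooled E for 0. The lowest was ZT4 pooled E for 41 and ZT4 individual C for 11. Each of the 4 is 1 library of its own hour and kind, so the differences below are between libraries, with counting intervals only.

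ZT5 pooled E and ZT3 individual B were the most alike of the 4. The whole block stood in ZT5 pooled E at 0.884 of its level in ZT3 individual B. Over the 31 members with 10 or more counts in each of the 4, the SD of the members' log2 ratios was 0.30. For 20 of the 31 the 95% counting interval of the ratio held the ratio of the whole block. The lowest ratio was 0.523 (NVE988) and the highest 1.31 (NVE24208), both named here as the extremes after their values were seen. The correlation of log2 CPM across the 31 genes was 0.990, a description across genes that share their library and are not replicates.

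ZT4 individual C departed more from that composition. The block stood there at 0.498 of its level in ZT3 individual B, but the SD of the log2 ratios was 0.86 and the interval held the block's ratio for 11 of the 31 members, while 7 lay above it and 13 below. NVE6036 had a ratio of 1.01 (95% interval 0.914 to 1.11) and NVE7148 one of 0.822 (0.785 to 0.861), so both were nearly as high in ZT4 individual C as in ZT3 individual B. NVE10468 had a ratio of 0.295 (0.280 to 0.312). NVE18571 had the lowest, 0.0628 (0.0311 to 0.114), and stood at 697 CPM in ZT3 individual B, 43.7 CPM in ZT4 individual C, 58.7 CPM in ZT4 pooled E and 403 CPM in ZT5 pooled E.

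In ZT4 pooled E the block stood at 0.278 of its level in ZT3 individual B, with an SD of the log2 ratios of 0.63, and the interval held that ratio for 16 of the 31 members. NVE10468, at 0.270, and NVE6036, at 0.280, lay near the block's ratio, and NVE7148, at 0.334, lay above it. NVE18571 was again the lowest, at 0.0842. The 2 libraries of ZT4 also differed from each other, with ratios of ZT4 pooled E to ZT4 individual C from 0.219 (NVE17146, named after its values were seen) to 1.34 (NVE18571) around 0.558 for the block.

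**Figure D4:**
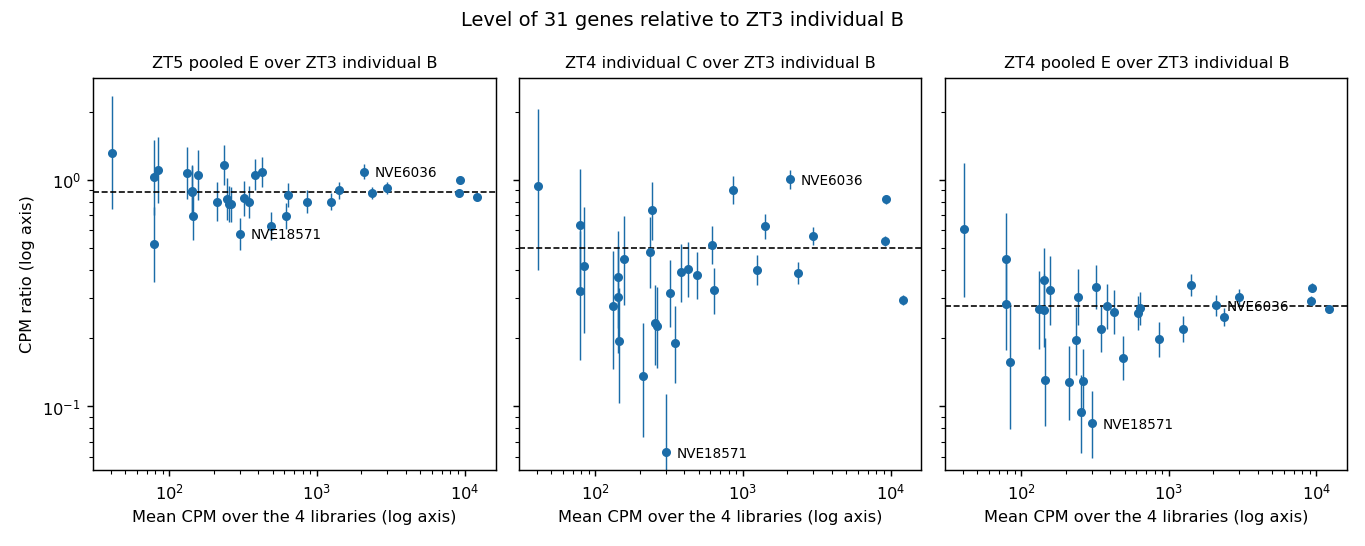
CPM in ZT5 pooled E, ZT4 individual C and ZT4 pooled E relative to ZT3 individual B (log axis) for the 31 members with 10 or more counts in each of the 4 libraries, against the mean CPM over the 4 (log axis). Bars are exact 95% counting intervals and the dashed line is the ratio of the whole block, 0.884, 0.498 and 0.278. NVE6036 lies at 1.01 in the middle panel and NVE18571 at 0.0628.

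For each of the 4 libraries, the member whose summed CPM over the 4 lay there in the highest share was as follows. NVE18571 had 57.97% of its summed CPM over the 4 in ZT3 individual B. NVE6302 had 40.7% in ZT4 individual C, at 19.9 CPM against 12.8 CPM in ZT3 individual B, 7.52 CPM in ZT4 pooled E and 8.60 CPM in ZT5 pooled E. NVE3791 had 20.4% in ZT4 pooled E, although its own highest share, 37.1%, was in ZT3 individual B. NVE22284 had 55.2% in ZT5 pooled E, at 17.2 CPM against 5.48 CPM in ZT3 individual B. The last 3 genes are low ones with at most 10 counts in any of the 4 libraries, so their shares have wide counting error.

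Outside the 4 libraries 5 members made up 50.3% of the block's counts. NVE22257, whose margin was 1.03, held 21.2% alone. Members counted in under 31 of the 62 all had a median of 0 CPM there. The block's share in the 62 is thus largely that of a few members counted in every library. The highest hourly mean of this share was that of ZT9, at 0.0658% ± 0.0059 (SD, n = 7), with libraries from 0.0585% to 0.0744%. The other hours had means from 0.0424% ± 0.0017 (n = 2, ZT4) to 0.0541% (ZT12). The 8 leading members summed to 140 CPM ± 41.1 (SD, n = 7) at ZT9, from 90.6 to 202 CPM, against 50.05 CPM ± 21.1 (n = 6) at ZT3 and 91.6 CPM ± 17.6 (n = 7) at ZT12. At ZT3 those 6 libraries ran from 30.0 to 80.6 CPM, so the 2 hours did not overlap, while ZT12, from 78.6 to 127 CPM, overlapped with both. In the 62 the single highest level was at ZT9 for 16 members, 6 of the 8 leading ones among them. The highest hourly mean was at ZT9 for 7 of the 8. The share of all gene models highest at ZT9 was not computed, so these counts are not read as particular to the block. ZT9 also had the highest mean number of gene models with a count, 18252 against 16910 in those ZT3 libraries.

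A test of the hour, which asks whether a gene's level differs among the 10 hours with sample type in the model, was run on the 62 libraries with edgeR's quasi-likelihood F test. The rule set only an upper limit on these libraries, namely the lowest level of the 4. The filter on low counts, which the 4 libraries helped members to pass, kept 33 of the 52, and 19 were not tested. Of the 33, 6 (18.2%) were called at an adjusted p below 0.05, beside 20.6% of all genes tested. At an unadjusted p below 0.05 there were 10 of the 33 (30.3%), beside 34.8% of all genes. With the filter recomputed on the 62 libraries 19 members were tested and 5 of them (26.3%) were called, beside 19.9% of all genes tested. NVE10469, called in the first fit, did not pass that filter. No share of members called is read as high or low, since the filter and the rule both bear on which members were tested.

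NVE19960 had the smallest adjusted p of the members, 0.000139 in that edgeR test. It averaged 10.7 CPM ± 2.77 (SD, n = 6) at ZT3, from 7.81 to 15.1 CPM, and 36.04 CPM ± 14.9 (n = 7) at ZT9, from 18.7 to 66.3 CPM. It averaged 28.4 CPM ± 7.34 (n = 7) at ZT12. The ZT9 and ZT3 libraries did not overlap, and the range of the fitted hours was 1.57 on the log2 scale.

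NVE10469 (edgeR adjusted p = 0.00109) averaged 1.96 CPM ± 0.983 (SD, n = 6) at ZT5 and 10.6 CPM ± 7.42 (n = 7) at ZT9, where its libraries ran from 4.08 to 26.5 CPM. The ZT5 libraries ran from 1.28 to 3.94 CPM, on few reads, and lay below all of ZT9. NVE10469 passed the filter on low counts only with the 4 libraries, so its p is not read as support. NVE7148 (edgeR adjusted p = 0.00658) averaged 8.28 CPM ± 5.82 (n = 6) at ZT6 and 29.3 CPM ± 10.0 (n = 7) at ZT9, and there the 2 hours overlapped, with libraries up to 17.6 CPM at ZT6 and from 14.1 CPM at ZT9.

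NVE18571 (edgeR adjusted p = 0.0154) averaged 4.22 CPM ± 4.24 (SD, n = 6) at ZT3 and 20.1 CPM ± 5.59 (n = 7) at ZT9. Its ZT3 libraries reached 11.8 CPM and its ZT9 libraries began at 13.1 CPM, so they did not overlap. NVE20318 (edgeR adjusted p = 0.00472) was highest at ZT10, with 35.96 CPM ± 3.88 (n = 7) against 16.03 CPM ± 8.15 (n = 6) at ZT3. The sixth, NVE15315, had an adjusted p of 0.0226, which rose to 0.1001 without ZT9 individual A, 0.0522 without ZT9 pooled E and 0.101 in limma, all past the threshold. In limma NVE18571 had an adjusted p of 0.0690 and was also not called. The number of members called in limma was 7 of 33, beside 2647 of the 10916 genes tested.

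Of the 6 members called, 5 had their highest fitted hour at ZT9, beside 15.4% of all 2248 genes called in the 62 libraries. NVE10469 is among those 5 and passed the filter only with the 4 libraries. NVE15315 and NVE18571 are also among them and were not called in limma. Nothing particular to the block is therefore read from the 5. NVE10468, the most abundant member, was not called (edgeR adjusted p = 0.322), with 28.97 CPM ± 11.8 (SD, n = 7) at ZT9 and 12.3 CPM ± 7.60 (n = 6) at ZT3. NVE22257 was not called either (edgeR adjusted p = 0.682). Its fitted hours spanned 0.42 on the log2 scale.

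**Figure D5:**
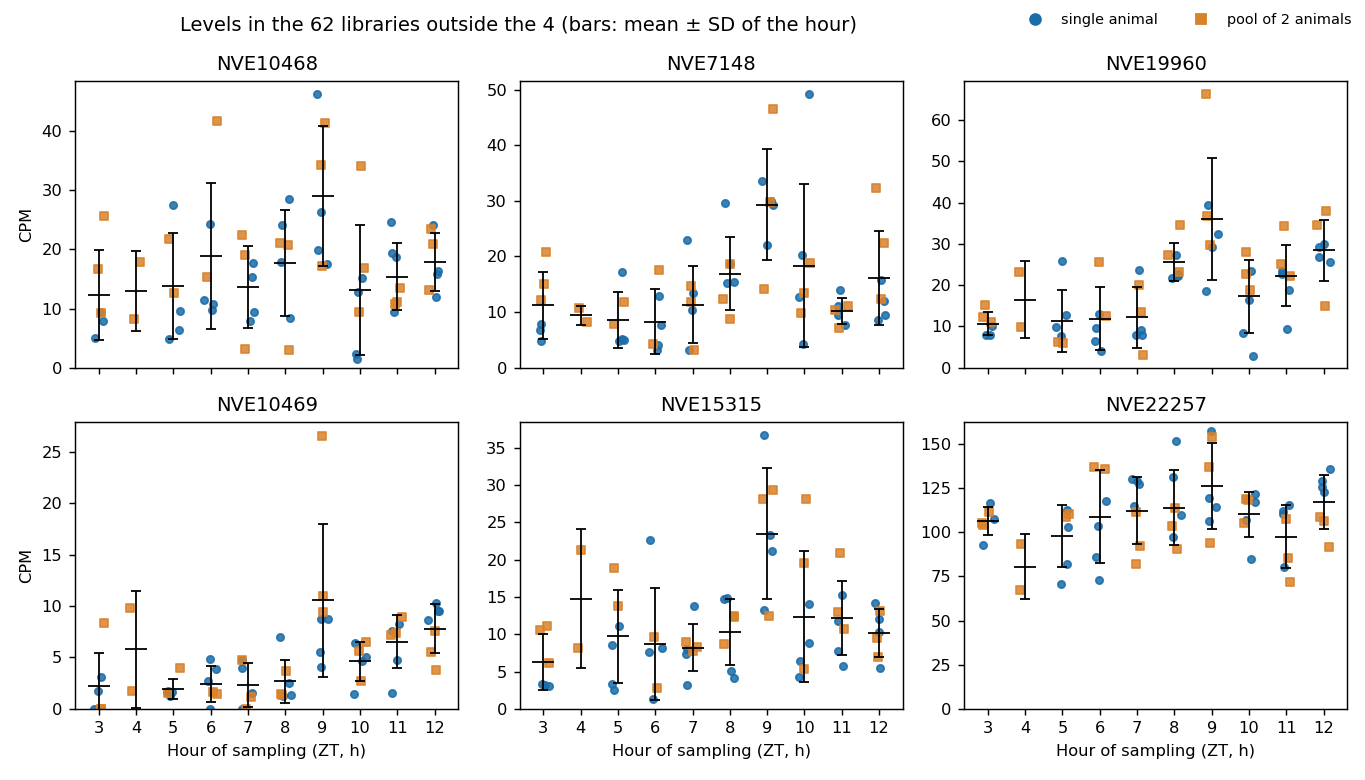
CPM of 6 members in the 62 libraries outside the 4, by hour of sampling, with single animals as circles, pools of 2 animals as squares and the mean ± SD of each hour in black. In NVE7148, NVE19960, NVE10469 and NVE15315, all called for the hour, ZT9 has the highest mean. NVE10469 passed the filter on low counts only with the 4 libraries. NVE10468 and NVE22257 were not called.

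With all 66 libraries the same edgeR test of the hour called 29 of the 33 members tested (87.9%), beside 21.9% of all genes tested. The 4 libraries that chose the members all lie at ZT3 to ZT5, so this count is part of the choice and nothing is read from it. It was 17 of 21 tested without ZT3 individual B and 17 of 21 tested without ZT5 pooled E, since fewer members then passed the filter. DESeq2 called 9 of 12, giving no adjusted p for the other 21, beside 25.1% of all genes with an adjusted p. In limma with sample quality weights it was 2 of 33, beside 27.5% of all genes. For the 8 leading members the limma adjusted p ran from 0.136 to 0.819.

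Pools of 2 animals and single animals were compared with the hour in the model. The fit held all 66 libraries, the 4 that chose the members included. In edgeR 0 of the 33 members tested were called, beside a background of 0%. An unadjusted p below 0.05 was found for 0 members, beside 5.47% of all genes (597). Without the 4 libraries edgeR again called 0 members, and 4 of the 33 (12.1%) had an unadjusted p below 0.05, beside 4.84% of all genes (528). That fit kept the filter of the 66 libraries, which the 4 helped members to pass. The share of members is therefore not read as high. Over the 66 libraries limma called 0 of the 33, and DESeq2 called 0 of 12, since it gave no adjusted p for the other 21. The block was carried by 2 single animals and 2 pools, a split set by the 4 libraries of the rule. Nothing is therefore read from the 0 calls over the 66 libraries. The block's share averaged 0.0509% ± 0.0069 (SD, n = 35) in the other single animals and 0.0525% ± 0.0088 (n = 27) in the other pools.

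A test of whether the hour effect differs between pools and single animals called 12 of the 33 members in edgeR, beside 0.147% of all genes tested (16 genes). None of the 12 had a count in all 62 libraries. They were 8 members counted in 31 to 61 of them and 4 counted in fewer, and the 16 members tested that were counted in all 62 gave 0 calls. At ZT3 the library that carried the block is a single animal and at ZT5 it is a pool, so this contrast again uses the values that chose the members. The count was 1 of 21 tested without ZT3 individual B, 0 of 21 tested without ZT5 pooled E, 0 without all 4 and 0 in limma. It was 6 without ZT3 pooled F, ZT3 pooled G or ZT5 individual D, and 7 without ZT5 individual A or ZT5 individual B. It rose to 20 without ZT3 individual A, ZT3 individual C or ZT4 pooled E, to 21 without ZT5 pooled F, to 22 without ZT5 pooled G and to 23 without ZT3 individual D.

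The gene models outside the block that were most like it were found by the correlation of log2(CPM + 1) with the block's summed level over the 66 libraries. They were NVE7815 (r = 0.908), NVE17519 (r = 0.896) and NVE16801 (r = 0.891). All 3 were low genes. NVE17519 had no count in any of the 62 libraries and none in ZT4 pooled E, and stood at 9.14 CPM in ZT3 individual B, 7.95 CPM in ZT4 individual C and 13.8 CPM in ZT5 pooled E. These correlations rest on the 4 libraries.

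Over the 62 libraries alone the most like were other genes, NVE16965 (r = 0.744), NVE17350 (r = 0.732) and NVE14814 (r = 0.720). In none of them did the 4 libraries stand above the 62. NVE16965 stood at 16.5, 7.95, 13.5 and 25.8 CPM in the 4, in the order used above, against a median of 39.3 CPM and a highest of 115 CPM in the 62. NVE14814 stood at 10.97 to 44.7 CPM in the 4, against a median of 108 CPM in the 62. The correlation over the 62 libraries is a description over points that share hours.

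Among the members, identifiers lay within 15 of each other for 3 pairs, NVE10468 with NVE10469, NVE17146 with NVE17159 and NVE24774 with NVE24781. Whether the numbers follow the order of genes in the genome is not stated in the table. Relative to ZT3 individual B, NVE10468 and NVE10469 had ratios of 0.295 and 0.565 in ZT4 individual C. Their ratios were 0.270 and 0.304 in ZT4 pooled E, and 0.841 and 0.921 in ZT5 pooled E, closer to each other than in ZT4 individual C. How the counting treated reads that fit more than 1 gene model is not stated in the sources used here, which leaves levels of near-identical genes uncertain.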

How the data were processed

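The authors deposited unnormalised counts of reads, in whole numbers, for 24265 gene models and 66 libraries. Per the labels, RNA came from preserved whole animals and the reference was the genome of Putnam and colleagues. The submitters' processing notes name Bowtie2. Its version, the counting tool, strand use and any molecular identifiers are not given in the sources used here, and amplified copies may be among the counts.

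The members and all choices of genes and tests were made with earlier results of these data known. Levels are CPM over the whole column, without further scaling. Tests used edgeR 4.0.16 in R 4.3.3 (quasi-likelihood F test, robust, TMM factors) on 10916 gene models kept by its filter (minimum count 10, hour as group), with hour and sample type as terms and Benjamini-Hochberg adjustment over all of them at 0.05. The 62-library fit kept the same gene models. Procedures were tested on simulated counts. The alternatives were limma 3.58.1 (voom, quality weights), DESeq2 1.42.0 and its size factors in edgeR, no filter, no covariate, the replicate letter as a block, each library left out and, added after the data were seen, an older form of the quasi-likelihood fit.

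Library totals of 251647 to 909746 counts limit the precision of low members: 1 count is close to 4 CPM in ZT4 individual C. Named genes are the 8 with the highest mean over the 4 libraries and the 3 widest and 3 narrowest margins. The 3 nearest non-members were taken among gene models with 10 or more counts in each of the 4. Also named are the member with the highest share in each of the 4, the 3 highest in the 62 and NVE20622. The list ends with the 3 non-members most like the block over 66 and over 62 libraries, and at most 5 called in the 62. Others are said to be named after their values were seen. The 52 identifiers matched 0 entries of a reference table of assembly jaNemVect1.1, so no sequence is shown.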

Additional observations from a re-analysis of the deposited data

Results flagged for a closer look

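Among the 4 single animals of ZT3, individual B stood apart from the other 3 in 10 measures, all described above as values that chose the block. These are the block's share of counts (7.229% against 0.0430% to 0.0445%), the number of members with a count (52 against 28 to 32) and the levels of the 8 leading members. The latter were 20270 CPM for NVE10468, 11860 CPM for NVE7148, 13510 CPM for NVE19960, 4254 CPM for NVE10469, 3779 CPM for NVE15315, 2475 CPM for NVE6036, 1980 CPM for NVE18783 and 2060 CPM for NVE3853.

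Outside the 4 libraries single animals differed from the others of their hour at far lower levels and on few reads. NVE10468 stood at 24.25 CPM (15 counts) in ZT6 individual A against 9.74 to 11.5 CPM in the other 3. NVE7148 stood at 17.19 CPM (10 counts) in ZT5 individual C against 4.77 to 5.12 CPM, and NVE19960 at 23.64 CPM (16 counts) in ZT7 individual C against 7.95 to 9.20 CPM. The next 3 values rest on 3 counts or fewer. NVE6036 stood at 7.027 CPM (3 counts) in ZT10 individual C against 0, and at 1.39 CPM (1 count) in ZT8 individual D against 2 counts in each of the others. NVE3853 stood at 1.383 CPM (1 count) in ZT11 individual D against 0. Leaving aside the single animals of ZT3, whose values chose the block, 6 of 80 groups and measures were picked out by Dixon's outlier test. Its nominal rate of about 1 in 20 need not hold for genes on so few counts. The measures also overlap, so the 6 are not set against that rate. Pools, with at most 3 libraries an hour, and ZT4, with 1 single animal, were not examined in this way.

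A test of whether the hour effect differs between pools and single animals called 12 members in edgeR, on values that chose the members. It called 0 without the 4 libraries, 0 in limma and 0 in the older quasi-likelihood fit, so nothing is read from it.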

How the results depend on the processing

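All 52 members were found again with TMM-scaled CPM (61 gene models by the rule). With the members' counts left out of the library totals the rule gave 58. That change raises levels in the 4 relative to the 62, so it could drop no member. Asking for a margin of at least 2 left 30 and asking for 10 counts in each of the 4 left 31. Leaving out 1 library likewise could drop no member, and gave 52 to 210, with 82 without ZT4 individual C and 210 without ZT4 pooled E. For the hour over 66 libraries, leaving out 1 library gave 17 to 30 members (17 of only 21 tested), DESeq2 gave 9 of 12 and limma 2. For the hour over the 62, leaving out 1 library gave 5 to 8. DESeq2 and limma each gave 7 of 33, beside 2604 and 2647 of the 10916 genes tested. With the filter recomputed on those libraries 5 of 19 members tested were called, beside 19.9% of all genes. For the difference of the hour effect between pools and single animals, the count was 0 in limma, 0 without the 4 libraries, 0 in the older quasi-likelihood fit and 0 to 23 with 1 library left out. Pools against single animals gave 0 members throughout. The cause of these differences was not tested.

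In the median, libraries with the same replicate letter did not deviate together more than libraries with other letters. Over 279 pairs with the same letter the median correlation of deviations was 0.0126, against 0.0142 for pairs with other letters. Among the same-letter pairs the lowest was -0.529 and 105 were over 0.1. Closest to their own letter were 11 of 66 libraries, for which no expected number was computed. With the letter as a replicate block in place of sample type, 24 members were called for the hour over 66 libraries and 6 over the 62. Depth limits the 21 members under 10 counts in ZT4 individual C.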
